A study of Mus musculus with 13 samples.

Results

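The comparison described here set the late phase of cooling at 32°C, the arrays of 4, 8 and 18 h, against the early phase, the arrays of 0.5, 1 and 2 h, in primary mouse embryonic fibroblasts. These 6 arrays, with 1 array of the same cells at 37°C before cooling (0 h) as the starting level, were taken by their labels from the 13 arrays of the series. The cells came from Millipore, with no strain, genotype or embryonic age given by the labels, and were grown on dishes in serum-containing medium until subconfluent. The temperature of the incubator was then lowered to 32°C, while the control dishes stayed at 37°C and were taken after the same hours. Each array (Affymetrix Mouse Gene 1.0 ST) held the pooled RNA of 3 dishes, and no time point was hybridised more than once. The 3 arrays of a phase were therefore different time points, and the p-values below measure the spread among times rather than among cultures. The 6 control arrays at 37°C were split into the same phases to show what the hours of culture alone did.

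Mild cooling slows transcription, translation and cell division, and mammalian cells answer it with a small set of cold-inducible transcripts, of which the RNA-binding proteins Cirbp and Rbm3 are the best known. Fibroblasts also answer almost any disturbance, such as a medium change or handling of the dish, with immediate early genes, whose transcripts appear without new protein synthesis and are short-lived. A time course can therefore hold a transient wave, a delayed programme and changes that last through both phases.

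The array medians lay between 145.0 and 149.8 intensity units, so the arrays shared a centre, which does not show a common scale for bright and dim genes. All 14 fibroblast markers measured (among them Col1a1, Pdgfra and Thy1) lay above the median gene, at array means of 11.42 to 11.61 on the log2 scale, whereas the marker lists of macrophages, endothelium, skeletal muscle, neural cells, epithelium, adipocytes, cartilage and red cells averaged 6.0 to 7.5. From 0.5 to 18 h of cooling 34, 129, 137, 102, 126 and 92 genes were 1.5-fold or more above 0 h, and 65, 32, 54, 157, 194 and 349 were as far below. At 37°C the numbers were 43, 70, 111, 57, 59 and 24 above and 12, 17, 25, 44, 44 and 20 below. The number above was highest at 2 h at both temperatures, and the number below was highest at 18 h at 32°C. The deposited values carry no detection calls, and in a bulk culture fewer cells of a type and less RNA per cell cannot be told apart.

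Across the 19938 genes, late minus early at 32°C was spread around a median log2 difference of 0.02, and 11113 genes were higher in the late phase. No gene passed an adjusted p of 0.05 in limma's test of the 6 arrays (0 of 19938, or 0%, in each direction), with 1165 genes higher and 1746 lower at an unadjusted p under 0.05. The split of these leaned on the scaling, since quantile normalization gave 1220 higher and 1310 lower and relative ranks 1271 and 1236. It also leaned on signal. Among the 9969 genes at or above the median signal 408 were higher and 1439 lower, and the median difference was −0.03. Most members of the lists below were such genes, for which −0.03 is a closer background than 0.02. The shares of all genes set beside the lists were not counted among these brighter genes alone. Since the brighter genes leaned lower, an excess of lower members over those shares may be overstated. When all 12 arrays from 0.5 h on shared 1 estimate of the spread, 70 genes rose (0.351% of those tested) and 354 fell (1.78%) from early to late at 32°C. At 37°C only Txnip rose in that fit (0.00502%) and none fell (0%). The shared spread was smaller than that of the cooled arrays themselves, as the median residual SD within a phase was 0.102 at 32°C and 0.0749 at 37°C. The calls of the 12-array fit also depended on 2 time points, since none was left without the 1 h arrays or without the 8 h arrays. After quantile normalization the 12-array fit gave 71 higher and 133 lower. In the text, "rose" and "fell" refer to calls of this fit, and other differences are given as values.

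Counting only genes whose 3 late arrays all lay above or all below the 3 early arrays, 1852 genes (9.29%) were higher and 1984 (9.95%) lower at 32°C, against 1723 (8.64%) and 848 (4.25%) at 37°C. For the difference between temperatures at matched times, 1319 genes (6.62%) had all late differences above the early ones and 2020 (10.1%) had them below, while limma's test of that difference called 0 genes (0%), with 751 higher and 1534 lower at an unadjusted p under 0.05.

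**Figure D1:**
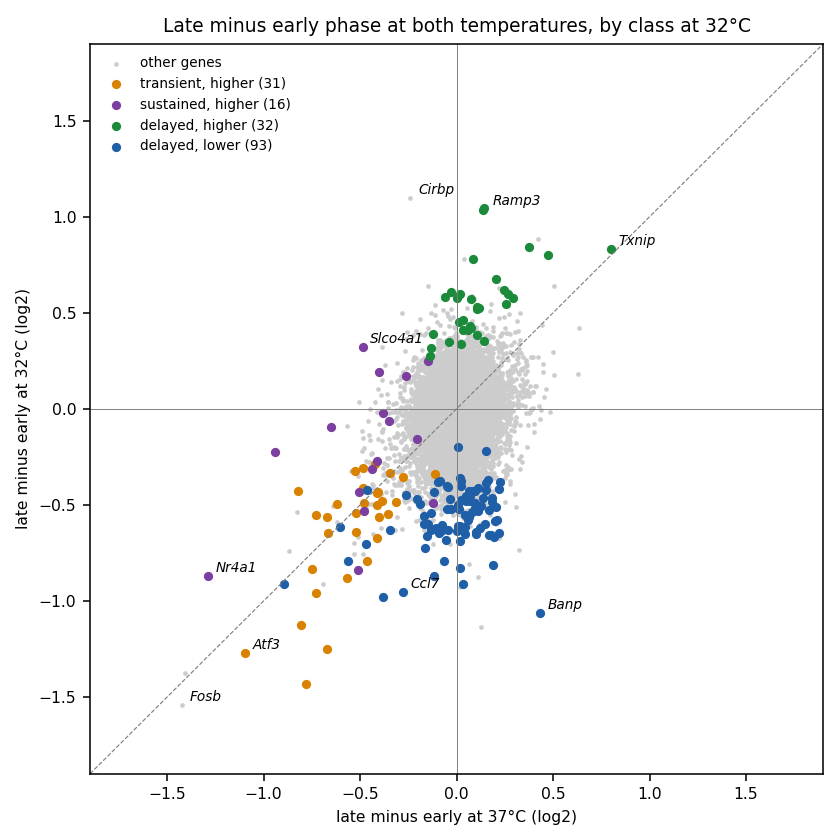
Late minus early log2 difference of each gene at 32°C (vertical axis) against the same difference at 37°C (horizontal axis), 19938 genes, coloured by class of course at 32°C, with the line of equal change dashed. Cirbp (1.10) and Ramp3 (1.04) are high at 32°C but at −0.24 and 0.14 at 37°C, Txnip is high at both, and Fosb and Atf3 are low at both.

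The courses were sorted into classes by size alone, since 0 h was 1 array. A phase counted as changed when at least 2 of its 3 arrays lay 1.5-fold or more (0.585 on the log2 scale) from 0 h in 1 direction, and as near 0 h when its mean lay within 0.29. Of 10470 genes bright enough to be sorted, 175 met a class at 32°C. There were 31 transient genes above 0 h and 1 below, 32 delayed genes above and 93 below, and 16 sustained genes above and 2 below. A further 61 genes changed in a phase without meeting any class, and none turned from one direction to the other. By the same rule the 37°C arrays, which share the 0 h array, gave 23 and 0 transient, 10 and 13 delayed, and 3 and 2 sustained genes. The largest class was thus of genes whose mean over the early arrays was near the starting level and which lay below it later. Single members, such as Proser3 and Banp, were already well below it at 2 h. The excess of delayed genes below the start leaned on the scaling, since quantile normalization gave 45 above and 64 below. The values that chose the members are given below as a description.

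**Figure D2:**
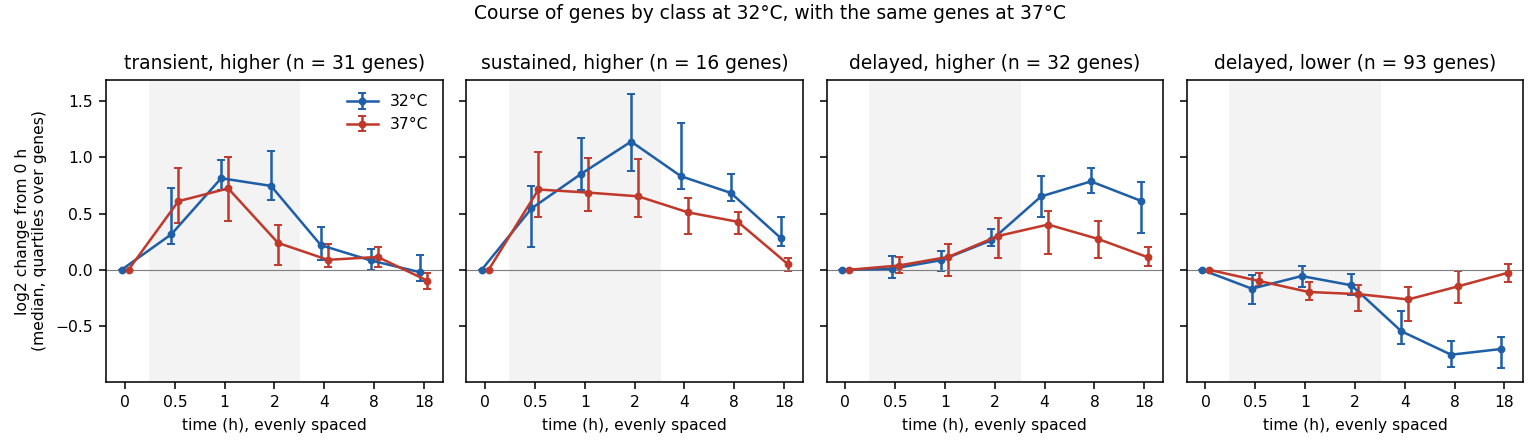
Log2 change from 0 h against hours (ordinal axis) for the 4 larger classes at 32°C, with points at the median over members and bars at the quartiles, beside the same genes at 37°C; the grey band marks the early phase. The transient class peaks at 1 h at 0.81 and is back at −0.02 by 18 h, while at 8 h the delayed class above the start has a median of 0.79 at 32°C and 0.27 at 37°C and the one below −0.75 and −0.15; members were chosen on the 32°C values.

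The transient class held transcription factors of the immediate early response (Fos, Egr1, Atf3), feedback regulators (Dusp10, Spry2, Smad7, Nfkbia, Tnfaip3), secreted factors (Edn1, Lif) and RNA-decay factors (Zfp36, Btg2). Its median change from 0 h at 32°C was 0.32 at 0.5 h, 0.81 at 1 h, 0.75 at 2 h, 0.22 at 4 h, 0.08 at 8 h and −0.02 at 18 h. The change was largest at 1 h in 16 genes, at 2 h in 12, at 0.5 h in 2 and at 8 h in 1. At 37°C the same 31 genes stood at 0.61, 0.72, 0.24, 0.09, 0.11 and −0.10. The late minus early difference at 37°C, which does not use the cooled arrays, was negative in 31 of 31 (all genes: 8264 of 19938), with a median of −0.48. In 13 of them the late arrays all lay below the early ones, against 4.25% of all genes. The transient wave was thus also present in the dishes that were not cooled.

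Atf3, a stress-inducible transcription factor, stood above 0 h by 1.26 at 0.5 h, 1.82 at 1 h, 1.48 at 2 h, 0.41 at 4 h, 0.10 at 8 h and 0.23 at 18 h of cooling (log2). At 37°C the values were 1.69, 1.31, 0.32, 0.01, 0.02 and 0.00. All late arrays lay below all early ones at both temperatures, and at 2 h the cooled cells stood at 1.48 against 0.32 at 37°C. The late minus early difference at 32°C was −1.27 (SE 0.14, adjusted p = 0.0519 in limma; 0.0298 in the 12-array fit), or a late level 0.414-fold of the early one, and at 37°C it was −1.10.

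Fos, the partner of Jun in AP-1, was at 1.80, 1.66 and 0.28 in the early arrays and at 0.21, −0.07 and −0.15 in the late ones. At 37°C it was at 1.95, 0.17 and −0.01 early. The 1 h array was the one that differed, with a high level in the cooled cells and nearly none above the start at 37°C. Fosb, which was in no class because its late mean stayed above the limit for near, stood at 1.67, 2.54 and 1.82 early and 0.65, 0.47 and 0.29 late. Its late minus early difference of −1.54 (SE 0.20, adjusted p = 0.0853; 0.0277 in the 12-array fit) was the most negative of those named here and compared with −1.43 at 37°C. The phases of Fosb did not overlap at either temperature.

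Edn1, the vasoactive peptide endothelin, stood at 0.78, 1.73 and 1.04 early and at −0.28, −0.24 and −0.22 late, whereas at 37°C it was at 1.5, 1.06 and −0.02 early. Its cooled late arrays all lay below 0 h, and at 2 h only the cooled cells held a level above the start. Lif, a cytokine of the interleukin-6 family, stood at 0.65, 1.44 and 1.80 early and at 0.59, 0.06 and −0.12 late, against 0.62, 1.26 and 0.59 early at 37°C. Csrnp1, a nuclear factor first known as induced by axin, was at 0.72, 1.48 and 1.44 early and 0.34, 0.36 and 0.07 late. In Lif and Csrnp1 the level at 2 h of cooling was near or above that at 1 h, whereas at 37°C it was well below it. Trib1, a pseudokinase that guides proteins to degradation, followed them at 0.73, 1.13 and 0.77 early and 0.14, −0.07 and −0.08 late (late minus early −0.88, SE 0.12, adjusted p = 0.0853; 0.0198 in the 12-array fit).

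The later position of the wave at 32°C was also seen in genes chosen without the cooled arrays. The 23 genes that were transient by the 37°C arrays had medians of 0.65, 0.93, 0.46, 0.22, 0.19 and −0.10 there, and of 0.42, 0.90, 1.11, 0.41, 0.27 and −0.04 at 32°C. They were higher at 32°C than at 37°C in 2 of 23 genes at 0.5 h, 11 at 1 h, 22 at 2 h and 20 at 4 h. Of all genes, 58.4% were higher at 32°C at 0.5 h, 49.2% at 1 h, 51.7% at 2 h and 48.1% at 4 h. Since these genes were chosen on their values at 37°C, the values are a description, and each time rests on 1 array per temperature.

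The list of 32 immediate early genes, chosen by function and not by class, had a median late minus early difference of −0.47 at 32°C and −0.36 at 37°C, beside 0.02 and 0.01 for all genes. None of its members was higher in the late phase at 32°C (all genes: 11113 of 19938). In 17 of the 32 the late arrays all lay below the early ones at 32°C (9.95% of all genes) and in 15 at 37°C (4.25%). In the 12-array fit 5 fell (Fosb, Junb, Ier3, Ier5 and Atf3), against 1.78% of all genes. Its median change from 0 h was 0.34, 0.73, 0.42, 0.21, 0.11 and 0.04 at 32°C and 0.50, 0.43, 0.24, 0.20, 0.14 and −0.12 at 37°C. At 0.5 h 7 of 32 members were higher in the cooled cells, and at 1 and 2 h 24 were.

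**Figure D3:**
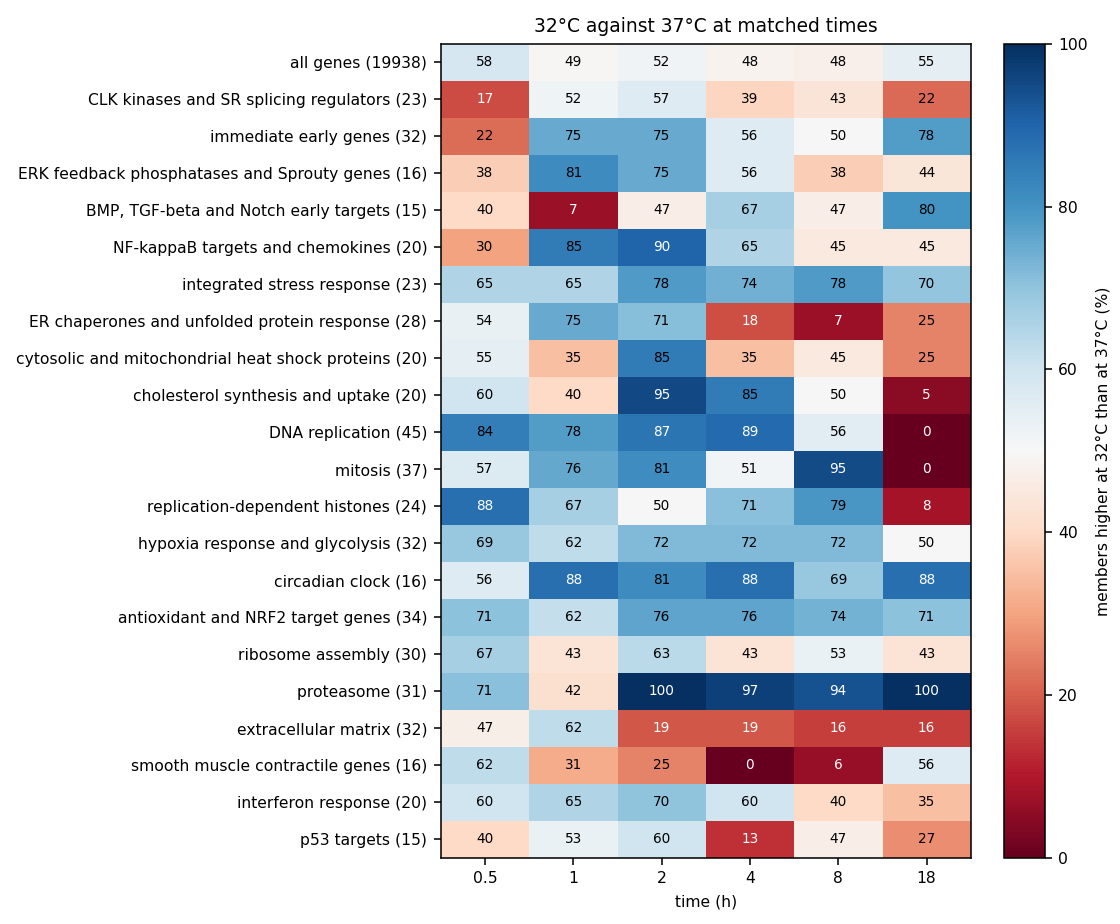
Percentage of members higher at 32°C than at 37°C (colour and number) at each matched time (hours) for the lists of 15 or more measured genes, with all genes in the first row. Immediate early genes lie at 21.9% at 0.5 h and at 75.0% at 1 and 2 h, and no DNA replication or mitosis gene is higher in the cooled cells at 18 h.

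Promoters of these genes were read for 2 elements that mediate immediate early induction, the CArG box (by name; bound by serum response factor) and the cyclic AMP element TGACGTCA (bound by CREB), on both strands in the 250 bases before each RefSeq start, GRCm38.p6. The CArG box was in 20.7% of the 29 promoters of the immediate early list, 1 of the 15 of the ERK feedback list to which Dusp5 belongs, 1 of the 27 of the transient class, 0 of the 12 of the sustained class and 1.26% of all 19177 promoters. The cyclic AMP element was in 6.90% of the promoters of the immediate early list, 3 of the 15 of the ERK feedback list, 11.1% of the transient class, 16.7% of the sustained class and 2.02% of all. Stretches are shown of Dusp5, the ERK-directed phosphatase (chr19:53529023-53529142, plus strand, CArG boxes in capitals), of the transient gene Plk2, a kinase induced by serum (chr13:110394924-110395043, plus strand), and of the sustained gene Dusp1, the phosphatase that switches off MAP kinases (chr17:26508536-26508655, minus strand), the last 2 with the cyclic AMP element in capitals. A match is a description of the letters and was not tested as a site.
Dusp5: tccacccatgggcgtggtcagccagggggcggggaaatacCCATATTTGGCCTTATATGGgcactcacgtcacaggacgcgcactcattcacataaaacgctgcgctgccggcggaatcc
Plk2: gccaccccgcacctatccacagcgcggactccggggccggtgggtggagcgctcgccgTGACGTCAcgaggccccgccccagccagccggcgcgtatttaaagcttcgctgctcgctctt
Dusp1: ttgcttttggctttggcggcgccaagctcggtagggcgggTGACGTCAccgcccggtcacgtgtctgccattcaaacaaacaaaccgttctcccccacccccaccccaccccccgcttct

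Plk2 stood at 0.34, 0.68 and 0.75 early and 0.46, 0.17 and 0.22 late, and Dusp5 at 0.79, 0.90 and 0.61 early and 0.39, 0.41 and 0.33 late. Both were high early, but the phases overlapped in Plk2 and not in Dusp5. The 16 genes of ERK feedback had a median difference of −0.32 at 32°C and −0.21 at 37°C. Non-overlapping and lower at 32°C were 6 of 16, against 9.95% of all genes. Spry1, an inhibitor of receptor tyrosine kinase signalling, had a late minus early difference of −0.37 at 32°C (SE 0.09, adjusted p = 0.148) and 0.10 at 37°C.

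The 20 targets of NF-kappaB, the transcription factor of inflammatory signalling, had a median of −0.30 at 32°C and −0.19 at 37°C. Non-overlapping and lower at 32°C were 9 of 20, against 9.95% of all genes. The list held both courses. Its inhibitors Nfkbia (0.28, 0.80 and 0.75 early, 0.05, 0.06 and 0.08 late) and Tnfaip3 (0.31, 1.04 and 0.69 early, 0.08, −0.01 and −0.05 late) were transient. The monocyte attractant Ccl7 was delayed and below the start, at 0.01, 0.07 and −0.15 early and −0.80, −1.29 and −0.84 late, with a difference of −0.95 (SE 0.13, adjusted p = 0.0853; 0.0198 in the 12-array fit) and −0.28 at 37°C. At 37°C Ccl7 was also below the start at 2 to 8 h, at −0.45, −0.70 and −0.44, and at −0.20 by 18 h. Vcam1, an adhesion molecule, had a difference of −0.46 at 32°C and −0.04 at 37°C. Ccl2, Ccl7, Vcam1 and Lif, 4 of the 20, fell in the 12-array fit, against 1.78% of all genes.

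Early targets of BMP, TGF-beta and Notch signalling had their highest list median, 0.72, at 2 h of cooling, and at 37°C theirs, 0.39, at 1 h. At 1 h 1 of the 15 was higher in the cooled cells, and at 2 h 7 were. Smad7, the inhibitory Smad, stood at 0.31, 0.81 and 1.14 early and at 0.45, 0.42 and −0.08 late. Hes1, the Notch-induced repressor, stood at 0.10, 0.77 and 0.88 early and at 0.27, 0.09 and 0.09 late, against 0.38, 1.20 and 0.09 early at 37°C. For both the 2 h array was the highest at 32°C and the 1 h array at 37°C. Grem1, a secreted BMP antagonist, ran the other way, at −0.16, 0.03 and 0.21 early and 0.53, 0.56 and 0.69 late (difference 0.57, SE 0.10, adjusted p = 0.108; 0.0154 in the 12-array fit), and 0.09 at 37°C. The list's median difference of −0.13 was −0.03 without the 2 h arrays and −0.05 without the 18 h arrays.

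The sustained class held the NR4A nuclear receptors, orphan receptors of the immediate early kind (Nr4a1, Nr4a2, Nr4a3), with Dusp1, Ppp1r15a, Hbegf, Tiparp, Plau, Id4, the transporter Slco4a1 and the microRNA genes Mir143 and Mir145a. Its median was 0.54, 0.85 and 1.14 early and 0.83, 0.68 and 0.28 late at 32°C, and 0.71, 0.69, 0.65, 0.51, 0.43 and 0.05 at 37°C. The median was thus under the 1.5-fold limit by 18 h. At 4, 8 and 18 h 15, 14 and 15 of the 16 were higher at 32°C than at 37°C, while at 0.5 h 1 was. Of all genes 48.1%, 47.5% and 54.6% were higher at these late times, and 58.4% at 0.5 h. The members were chosen on high values at 32°C, so the late counts follow in part from the rule.

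Nr4a1 stood at 1.31, 1.97 and 1.96 early and 1.54, 0.84 and 0.25 late, and at 37°C at 1.67, 1.72, 0.94, 0.46, 0.35 and −0.35. The 4 h array lay among the early values at 32°C and well below the 1 h value at 37°C. Nr4a3 was highest at 4 h, at 0.21, 1.14 and 1.84 early and 2.02, 0.70 and 0.19 late. Its late minus early difference of −0.09 (SE 0.49) says little of its course, since its highest arrays were those of 2 and 4 h, on either side of the phase border, and the sign turned when single times were left out. Slco4a1, an organic anion transporter, stood at 0.32, 0.63 and 1.55 early and 1.68, 1.39 and 0.39 late. It peaked at 4 h of cooling and at 2 h, at 1.09, at 37°C.

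Dusp1 stood at 1.16, 1.33 and 1.10 early and at 0.79, 0.74 and 0.46 late, so that its phases did not overlap (difference −0.53, SE 0.10, adjusted p = 0.117). Ppp1r15a, the phosphatase subunit that reverses the block of translation under stress, was at 0.71, 1.11 and 0.85 early and at 0.54, 0.60 and 0.59 late, whereas at 37°C it was at 0.90 at 0.5 h and between −0.05 and 0.06 from 2 h on. The cooled late arrays all lay above every 37°C array from 2 h on. The 23 genes of the integrated stress response, Ppp1r15a among them, had no shared change between phases, with a median difference of 0.01 at 32°C and −0.06 at 37°C. At each time 65.2% to 78.3% of them were higher at 32°C than at 37°C, against 47.5% to 58.4% of all genes. The 2 sustained genes below the start were the zinc finger genes Zfp931 and Zbtb26, the latter at −0.74, −0.60 and −0.62 early and −0.71, −0.56 and −0.63 late.

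**Figure D4:**
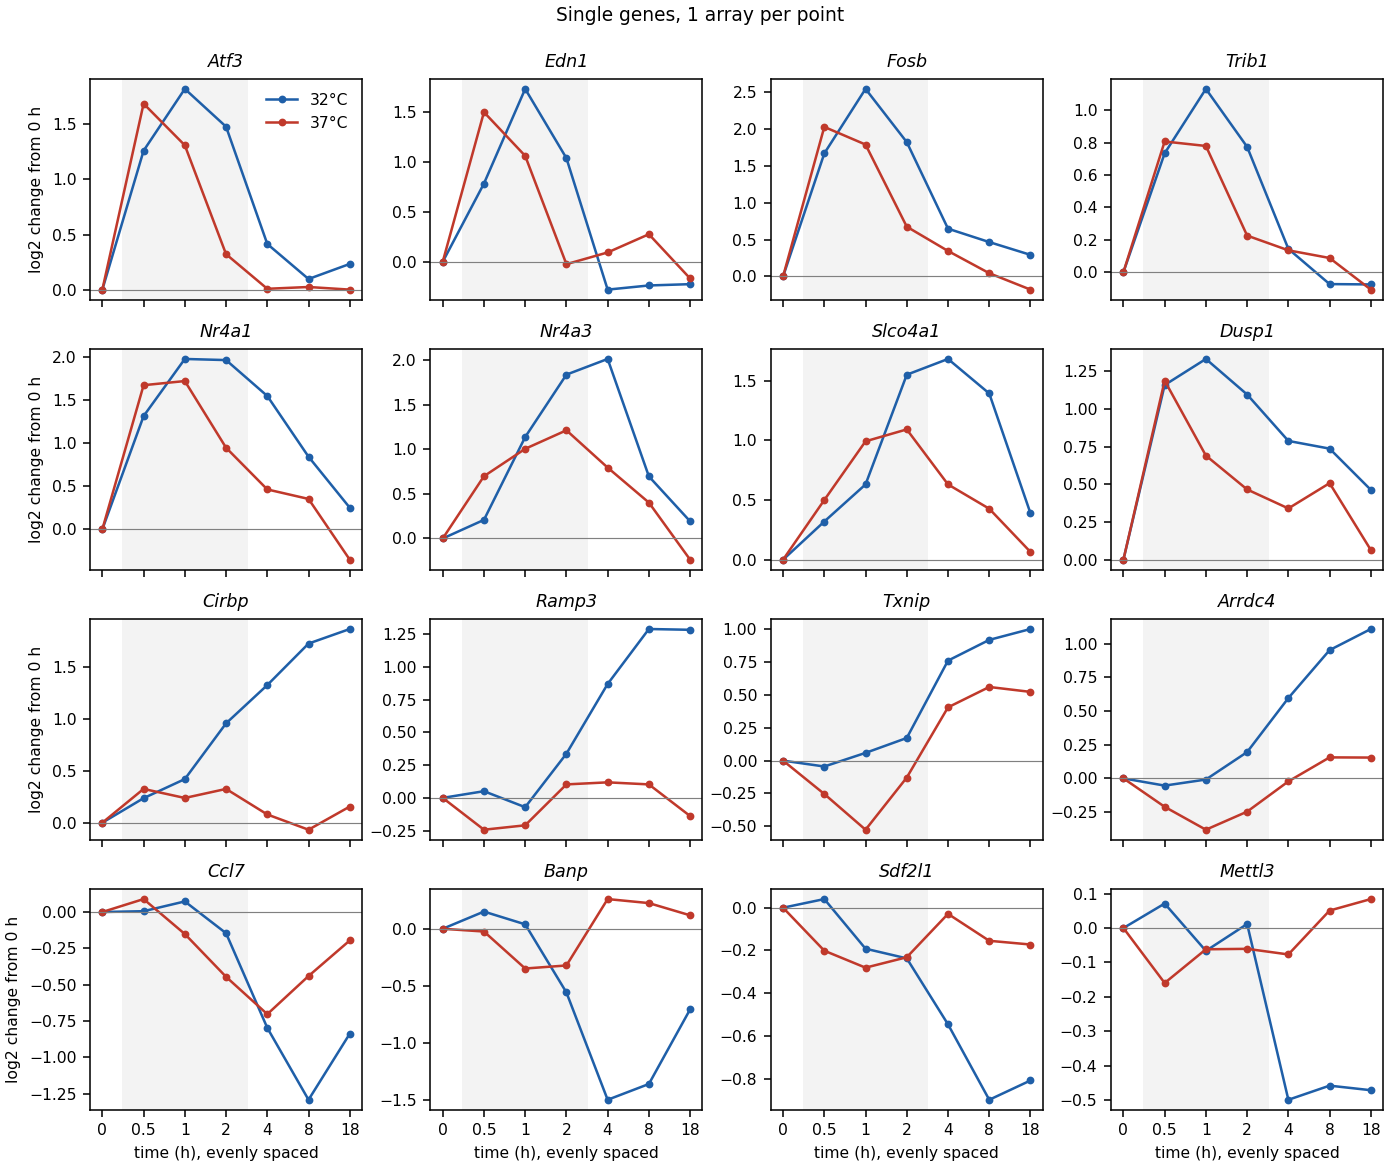
Log2 change from 0 h against hours at 32°C and 37°C for 16 single genes, 1 point per array, with the early phase in grey. Atf3 leaves its high level after 2 h of cooling, Nr4a3 peaks at 4 h, Cirbp reaches 1.86 at 18 h, and Ccl7 lies at −1.29 at 8 h.

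Cirbp, whose protein binds and stabilises transcripts in cooled cells, stood above 0 h by 0.24 at 0.5 h, 0.42 at 1 h, 0.96 at 2 h, 1.32 at 4 h, 1.72 at 8 h and 1.86 at 18 h at 32°C, and by 0.32, 0.24, 0.32, 0.08, −0.07 and 0.15 at 37°C. Every later array at 32°C was above every earlier one, though the step from 8 to 18 h was smaller than that from 4 to 8 h. With 1 array per time, whether the level was still rising by 18 h cannot be told. The difference was 1.10 (SE 0.19, adjusted p = 0.108; 0.0154 in the 12-array fit), a 2.14-fold higher late level, and −0.24 at 37°C. The change differed between temperatures by 1.34 (SE 0.19, adjusted p = 0.0971). It was in no class because its early mean of 0.54 was too far from 0 h. Rbm3, its cold-inducible relative, had a difference of 0.07 (SE 0.07, adjusted p = 0.664) on a high mean level of 13.2 log2 units, with values from 0 h between −0.05 and 0.16 at 32°C.

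The 32 delayed genes above the start had medians of 0.01, 0.09 and 0.26 early and 0.65, 0.79 and 0.61 late at 32°C. At 37°C they stood at 0.04, 0.11, 0.30, 0.40, 0.27 and 0.11. The 1.5-fold limit was first passed at 4 h in 19 of them, at 8 h in 11 and at 2 h in 2. Their late minus early difference at 37°C, which the rule did not use, had a median of 0.08, with 26 of 32 positive (all genes: 11673 of 19938). At 37°C 3 were non-overlapping and higher, which is near the 8.64% of all genes. The class held the receptor partner Ramp3, the quinone reductase Nqo1, the alpha-arrestins Txnip and Arrdc4, the nuclear receptor Pparg, the hormones Stc1 and Stc2, the Wnt genes Wnt11, Porcn and Fzd6, and the cytokine inhibitor Socs2.

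Ramp3, which pairs with the calcitonin receptor-like receptor to bind adrenomedullin, stood at 0.05, −0.07 and 0.34 early and at 0.87, 1.29 and 1.28 late. At 37°C it lay between −0.24 and 0.12. Its late level was 2.06-fold of the early one (difference 1.04, SE 0.14, adjusted p = 0.0853; 0.0154 in the 12-array fit), and 0.14 on the log2 scale at 37°C. Adm, the ligand, was lower in the late phase, at −0.46, −0.32 and −0.13 late and 0.13, 0.12 and −0.02 early (difference −0.38, SE 0.09, adjusted p = 0.165). The phases of both genes did not overlap, in opposite directions.

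Nqo1 stood at 0.09, −0.06 and 0.26 early and at 0.57, 1.22 and 1.60 late, and at 37°C between −0.05 and 0.24. It was higher at 18 h than at 8 h, and its 18 h value was the highest of the delayed genes named here. The difference was 1.03 (SE 0.22, adjusted p = 0.139; 0.0223 in the 12-array fit) and 0.13 at 37°C. The other genes of the antioxidant list, enzymes of glutathione and thioredoxin turnover, moved less, as the list of 34 had a median of 0.03 at 32°C and −0.02 at 37°C. Non-overlapping and higher at 32°C were 7 of 34, against 9.29% of all genes. Srxn1, which repairs peroxiredoxins, was at 0.19, 0.12 and 0.35 early and at 0.55, 0.64 and 0.55 late (difference 0.36, SE 0.08, adjusted p = 0.143), and Txnrd3 had a difference of 0.36. Both rose in the 12-array fit with Nqo1, 3 of the 34, against 0.351% of all genes. Gclc (0.54, 0.56 and 0.29 late) and Txnrd1 (0.51, 0.57 and 0.23 late) overlapped the early arrays and were lower again at 18 h. The list of 10 genes of the PCR assays and of the tabled antioxidant genes had a median of 0.29, with 6 non-overlapping and higher. That list was picked by the study on these samples and is no independent evidence of its direction.

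Txnip and Arrdc4 are alpha-arrestins that restrain glucose uptake and are induced by the glucose-sensing factors MondoA and ChREBP through an E-box. Txnip stood at −0.04, 0.06 and 0.17 early and at 0.76, 0.92 and 1.00 late at 32°C, and at −0.25, −0.53 and −0.13 early and 0.41, 0.56 and 0.52 late at 37°C. The phases did not overlap at either temperature, and the differences were 0.83 (SE 0.09, adjusted p = 0.0519) and 0.80. The change of Txnip thus differed between temperatures by 0.03 (SE 0.11), while its level was higher in the cooled cells at every time. Arrdc4 stood at −0.05, −0.01 and 0.20 early and at 0.60, 0.95 and 1.11 late, and its differences of 0.84 at 32°C and 0.38 at 37°C were 0.47 apart (SE 0.12, adjusted p = 0.214).

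The E-box CACGTG was in 27.3% of the 11 promoters of the list of alpha-arrestins and MondoA partners. It was in 10.7% of the 28 promoters of the delayed class above the start and in 6.99% of all promoters. The delayed class below the start (11.8% of 102) and the transient class (11.1% of 27) held it as often. The clock list held it in 33.3% of 18. A match is a description of the letters and was not tested as a site. The E-box is shown in capitals in the promoter of Arrdc4 (GRCm38.p6, chr7:68749352-68749471, minus strand), the delayed gene with the arrestin course.
Arrdc4: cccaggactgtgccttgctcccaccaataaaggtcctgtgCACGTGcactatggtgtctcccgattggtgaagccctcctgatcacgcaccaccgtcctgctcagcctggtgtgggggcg

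Other genes stood above the start in all late arrays of the cooled cells. Cpm, a membrane carboxypeptidase, stood at −0.04, 0.20 and 0.22 early and 0.95, 1.01 and 0.83 late (difference 0.80, SE 0.09, adjusted p = 0.0519), with 0.47 at 37°C. Pparg, the regulator of fat cell genes, stood at −0.06, −0.05 and 0.28 early and 0.83, 0.62 and 0.75 late, and at 37°C at 0.62 at 2 h and 0.58 at 8 h. The phases did not overlap at 32°C, but its 37°C arrays also lay above the start from 1 h on. The fat cell marker list to which Pparg belongs had 2 of 5 members above the median gene. Kcnk10, a potassium channel that met no class, stood at 0.12, 0.16 and 0.26 early and 0.84, 0.76 and 0.63 late (difference 0.57, SE 0.08, adjusted p = 0.0853). Herc3, a ubiquitin ligase, was at 0.59, 0.92 and 0.65 late, but its 37°C value at 2 h was also 0.59.

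The 93 delayed genes below the start had medians of −0.17, −0.06 and −0.14 early and −0.55, −0.75 and −0.70 late at 32°C. At 37°C they stood at −0.10, −0.20, −0.22, −0.26, −0.15 and −0.03. The limit was first passed at 8 h in 52 of them, at 4 h in 40 and at 2 h in 1. The late minus early difference at 37°C had a median of 0.02, with 36 of 93 negative (all genes: 8264 of 19938). At 37°C 10 had late arrays all above and 7 all below the early ones, against 8.64% and 4.25% of all genes. At 8 h 5 of the 93 were higher at 32°C than at 37°C and at 18 h 1 was, against 47.5% and 54.6% of all genes. The members were chosen on low late values at 32°C, so these counts follow in part from the rule. The class joined few of the lists, since it held 2 heat shock genes, 2 chemokines and single members of others.

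Banp, a nuclear matrix protein that binds the p53 protein, stood at 0.15, 0.04 and −0.56 early and at −1.50, −1.36 and −0.70 late, and at 37°C between −0.35 and 0.26. Its level was lowest at 4 h and had come part of the way back by 18 h. The difference was −1.06 (SE 0.23, adjusted p = 0.139; 0.0248 in the 12-array fit) and 0.43 at 37°C, −1.50 apart (SE 0.23, adjusted p = 0.116). Stxbp4, a syntaxin-binding protein, stood at −0.15, −0.02 and −0.13 early and at −0.62, −1.17 and −1.12 late and did not come back. Slfn9, a Schlafen family gene, was at −0.36, 0.00 and −0.34 early and at −0.64, −1.05 and −1.19 late, with 37°C values of −0.64 and −0.49 at 4 and 8 h.

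The genes whose change differed most between temperatures by p were Cirbp on the higher side and Map3k12, Senp8, Tti1, Trmt1l, Sdf2l1 and Proser3 on the lower, each at an adjusted p of 0.0971 and so not past the threshold. Map3k12, a kinase upstream of JNK, stood at 0.18, 0.09 and −0.25 early and at −0.82, −0.66 and −0.51 late, against 37°C values from −0.38 to 0.08. Senp8, which removes NEDD8 from its targets, stood at −0.61, −0.37 and −0.91 early and −1.64, −1.26 and −1.19 late. Proser3, a proline- and serine-rich protein, stood at 0.05, −0.12 and −0.63 early and −1.15, −0.96 and −1.02 late. Each was already lower at 2 h than at 1 h of cooling, and lowest at 4 h. Trmt1l, a tRNA methyltransferase relative, and Tti1, a chaperone partner of PI3K-related kinases, had the same lowest time, at −1.16 and −0.60. Mettl3, which writes m6A into mRNA, stood within 0.07 of the start in all early arrays and at −0.50, −0.46 and −0.47 late (difference −0.48, SE 0.07, adjusted p = 0.0853; 0.0152 in the 12-array fit), against 0.11 at 37°C. Tmem74 stood at −0.01, 0.21 and 0.17 early and −0.55, −0.67 and −0.77 late, and its difference of −0.79 (SE 0.09, adjusted p = 0.0519) was −0.07 at 37°C.

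**Figure D5:**
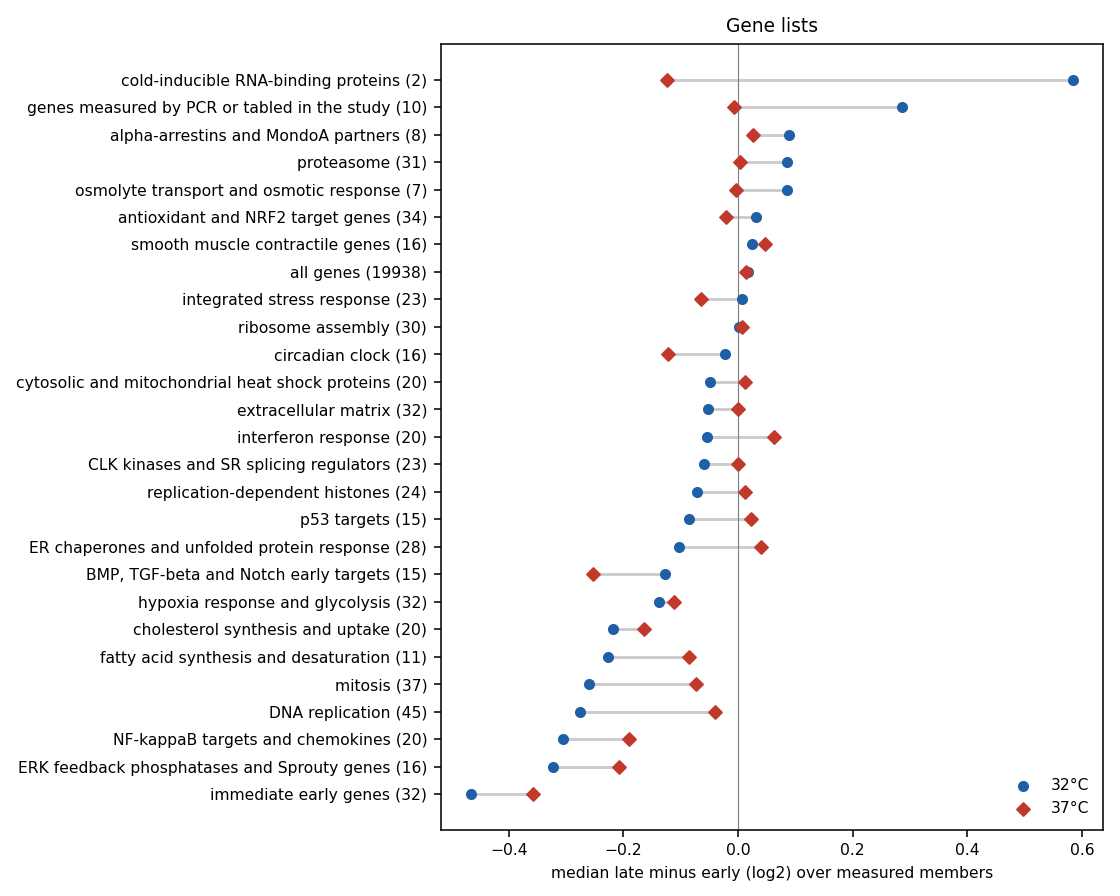
Median late minus early log2 difference of each gene list at 32°C and 37°C, with all genes as 1 of the lines and the number of measured members in brackets. Immediate early genes are lowest at both temperatures, whereas DNA replication and mitosis lie at −0.28 and −0.26 at 32°C and at −0.04 and −0.07 at 37°C.

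Genes of DNA replication (helicase loading, polymerases, nucleotide supply) had a median late minus early difference of −0.28 at 32°C and −0.04 at 37°C. In 18 of 45 the late arrays all lay below the early ones at 32°C, and in none above, against 9.95% and 9.29% of all genes. Rfc2, a subunit of the clamp loader, stood at 0.22, −0.02 and 0.08 early and −0.22, −0.43 and −0.58 late (difference −0.50, SE 0.10, adjusted p = 0.135), and Uhrf1, which keeps DNA methylation through replication, at 0.09, 0.09 and 0.02 early and −0.31, −0.44 and −0.57 late (difference −0.51, SE 0.08, adjusted p = 0.104). These 2 of the 45 fell in the 12-array fit, against 1.78% of all genes. The list median at 32°C was 0.08, −0.04, 0.03, −0.09, −0.17 and −0.48 from 0.5 to 18 h, and 40 of 45 members were higher at 32°C than at 37°C at 4 h, 25 at 8 h and 0 at 18 h. Without the 18 h arrays the median difference was −0.15.

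The 37 mitosis genes had a median of −0.26 at 32°C and −0.07 at 37°C. Non-overlapping and lower at 32°C were 10 of 37, against 9.95% of all genes, and no member was called in the 12-array fit. Their median change from 0 h was −0.07, −0.12, −0.10, −0.21, −0.15 and −0.75, so the 18 h array carried the difference, which was −0.05 without it. At 8 h 35 of 37 were higher at 32°C than at 37°C, and at 18 h none was. Mki67, the proliferation marker, stood at −0.35, −0.13 and −0.18 early and −0.38, −0.57 and −1.09 late. Ccnb2, a mitotic cyclin, stood at 0.01, −0.07 and −0.05 early and −0.17, −0.32 and −0.59 late (difference −0.32, SE 0.10, adjusted p = 0.242).

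The cell cycle element TTTGAA, through which such genes are held back outside mitosis, was in 34.4% of the 32 mitosis promoters and in 13.4% of all. CCAAT was in 78.1% and 34.5%. TTTGAA was more frequent in the 20 promoters of the replication-dependent histone list (45.0%). CCAAT was as frequent in that list (80.0%), the list of endoplasmic reticulum chaperones (80.0%) and the cholesterol list (84.2%). A match is a description of the letters and was not tested as a site. The Ccnb2 promoter is shown with the cell cycle element in capitals (GRCm38.p6, chr9:70421642-70421761, minus strand).
Ccnb2: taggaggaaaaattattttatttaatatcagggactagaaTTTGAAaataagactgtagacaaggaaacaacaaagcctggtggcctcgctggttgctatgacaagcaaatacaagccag

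Chaperones of the endoplasmic reticulum, which fold secreted proteins, had a list median of −0.10 at 32°C and 0.04 at 37°C. Non-overlapping and lower were 13 of 28 at 32°C and 1 at 37°C, against 9.95% and 4.25% of all genes. At 8 h 2 of the 28 were higher in the cooled cells. Sdf2l1, a cofactor of BiP, stood at 0.04, −0.19 and −0.24 early and −0.55, −0.90 and −0.81 late, with a difference of −0.62 (SE 0.11, adjusted p = 0.108; 0.0154 in the 12-array fit), 0.12 at 37°C, and −0.74 between them (SE 0.10). Creld2, a secreted disulphide isomerase-like protein, stood at −0.07, −0.13 and −0.07 early and −0.31, −0.58 and −0.74 late. Hyou1, an ER member of the HSP70 family, was at −0.23, −0.38 and −0.64 late. Sdf2l1 and Creld2, 2 of the 28, fell in the 12-array fit, against 1.78% of all genes. The CCAAT box, 1 part of the ER stress element, was in 80.0% of the 25 promoters of the list, against 34.5% of all. It was as frequent in promoters of the cholesterol list (84.2%) and the replication-dependent histone list (80.0%). The whole element was not searched for, and a match is a description of the letters. The Sdf2l1 promoter holds 3 CCAAT boxes, shown in capitals as CCAAT or its reverse ATTGG (GRCm38.p6, chr16:17132385-17132591, minus strand).
Sdf2l1: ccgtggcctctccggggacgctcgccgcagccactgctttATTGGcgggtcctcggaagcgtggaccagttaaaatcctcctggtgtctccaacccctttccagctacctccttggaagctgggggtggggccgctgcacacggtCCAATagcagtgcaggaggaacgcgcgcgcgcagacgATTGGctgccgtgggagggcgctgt

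Cytosolic heat shock genes as a list were near all genes, with a median of −0.05 at 32°C. In the 12-array fit 3 of 20 fell, against 1.78% of all genes. Hsph1, a partner of HSP70, stood at −0.08, −0.08 and −0.09 early and at −0.34, −0.80 and −0.94 late, against −0.14 to −0.23 at 37°C. Chordc1, an HSP90 partner, stood at −0.46, −0.24 and −0.16 early and −0.78, −0.63 and −0.60 late. Dnajb1, a co-chaperone, was above the start early, at 0.43, 0.25 and 0.42, and at 0.10, 0.15 and −0.16 late. The 3 genes had non-overlapping phases at 32°C.

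Cholesterol synthesis genes had a median of −0.22 at 32°C and −0.16 at 37°C. Non-overlapping and lower were 12 of 20 at 32°C and 7 at 37°C, against 9.95% and 4.25% of all genes. Sqle, squalene epoxidase, stood at 0.00, −0.04 and −0.02 early and −0.28, −0.42 and −0.29 late, and Dhcr7, the last enzyme of the pathway, at 0.05, 0.02 and −0.10 early and −0.41, −0.60 and −0.39 late. At 2 and 4 h 19 and 17 of 20 members were higher in the cooled cells, and at 18 h 1 was. Fatty acid synthesis genes had a median of −0.23 at 32°C and −0.09 at 37°C. Acly, Acaca and Elovl6, 3 of the 11, fell in the 12-array fit, against 1.78% of all genes. Hypoxia and glycolysis genes had medians of −0.14 at 32°C and −0.11 at 37°C. Non-overlapping and lower were 15 of 32 at 32°C and 13 at 37°C, against 9.95% and 4.25% of all genes. Bnip3, a mitophagy receptor, stood at −0.36, −0.81 and −0.69 late at 32°C and at −0.64, −1.13 and −0.59 at 37°C, with differences of −0.61 and −0.60. Ak4, an adenylate kinase induced by HIF-1, had a difference of −0.75 at 32°C, but a second transcript cluster of the gene gave −0.04.

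Proteasome genes were higher at 32°C in small steps, with a median difference of 0.08 at 32°C and 0.00 at 37°C. At 32°C 26 of 31 were positive (all genes: 11113 of 19938). All 31 were higher in the cooled cells at 2 h and at 18 h, 30 at 4 h and 29 at 8 h, but 13 were at 1 h. Psma3, a core subunit, stood at −0.17, −0.18 and 0.01 early and 0.02, 0.09 and 0.10 late. None was called, and the difference was 0.04 without the 1 h arrays.

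Splicing regulators of the CLK and SR families had a list median of −0.06 and no shared phase, though single courses were displaced in time. Srsf5 stood at −0.01, 0.35 and 0.59 early and 0.71, 0.18 and −0.23 late at 32°C, and at 0.32, 0.42 and 0.42 early and −0.21, −0.14 and −0.19 late at 37°C. Its phases did not overlap at 37°C (difference −0.57, adjusted p = 0.143) and overlapped at 32°C (−0.09), where the highest array was that of 4 h. The 16 clock genes had a median of −0.02 at 32°C, and 1 fell in the 12-array fit, against 1.78% of all genes. It was Bhlhe40, a repressor of the clock, at 0.26, 0.75 and 0.63 early and −0.20, −0.44 and −0.10 late. Slc5a3, the inositol transporter, was lower late, at −0.57, −0.88 and −1.14, against −0.31, −0.15 and −0.32 early.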

How the data were processed

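The deposited series table held 1 normalized intensity per transcript cluster and array on a linear scale, made by the authors from Mouse Gene 1.0 ST scans, with the normalization steps not given in the sources used here, so log2 was taken before analysis. Of 28853 transcript clusters, 21789 had 1 gene symbol (21698 matched by Entrez identifier), and for each of 19938 genes 1 cluster was kept, the one of highest mean signal. Late and early phases were compared with limma 3.58.1 (lmFit, eBayes; R 4.3.3), 2-sided, with Benjamini-Hochberg adjustment over all genes, at 32°C and at 37°C separately. The difference between temperatures was fitted over 12 arrays with time point as a block. These 3 fits were tested on simulated data. The alternatives are given in the closing section. Named genes were the 12 per direction of lowest p at 32°C, 6 for the difference and 5 at 37°C, 5 per class, up to 4 per list and those measured or tabled by the study. Other genes were chosen after their values were seen. The classes, 26 gene lists and 9 marker lists were chosen with earlier results of these data known, so counts over lists carry no test. Promoters were taken from RefSeq (GRCm38.p6), with 15614 of the genes matched. How precise a value is depends on how many arrays there were.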

Additional observations from a re-analysis of the deposited data

How the results depend on the processing

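With 3 arrays a phase and no repeated time point, limits are set by the number of time points. The counts of 0 for late minus early stayed at 0 under quantile normalization, relative ranks, the filter on dim genes and all transcript clusters. With a trended variance prior, 2 genes were higher and 2 lower at 32°C, 1 lower at 37°C, and 1 higher and 6 lower for the difference between temperatures. Leaving out single times gave 0 to 5 higher and 0 to 9 lower at 32°C, 0 to 1 lower at 37°C, and 0 for the difference. Without time point as a block, the difference also gave 0 in each direction. The 12-array fit gave 70 higher and 354 lower at 32°C and 1 higher at 37°C. Chosen after seeing the data, it gave 71 and 133 with quantile normalization (1 higher at 37°C), 27 and 63 on ranks, and 0 to 217 and 0 to 630 when single times were left out (16 and 82 without 0.5 h, 0 and 0 without 1 h or 8 h, 217 and 630 without 2 h, 160 and 495 without 4 h, 27 and 108 without 18 h; 0 to 2 and 0 to 5 at 37°C). The non-overlap counts were 1852 and 1984 at 32°C (1845 and 1683 after quantile normalization, added later) and 1723 and 848 at 37°C. For the classes, a 2-fold limit left 10 transient genes above and 0 below the start, 2 delayed above and 7 below, and 0 sustained in either direction. Asking for all 3 arrays left 6 and 0, 8 and 19, and 1 and 0. Without the filter on dim genes 3 transient genes were below. After quantile normalization 45 delayed genes were above the start and 64 below, against 32 and 93 before it, and 1 sustained gene was below. Leaving out single times, chosen after seeing the data, gave 6 to 43 transient above and 0 to 3 below, 8 to 38 delayed above and 21 to 94 below, and 2 to 15 sustained above and 0 to 2 below. The lowest counts came without 1 h for the transient genes above (6), and without 8 h for the delayed genes above (8) and below (21) and the sustained genes above (2). No sustained gene was below without 4 h or without 18 h. Of 142 named differences, 2 changed sign, both when single times were left out, and alike in both fits. Nr4a3 ran from −0.62 to 0.29 (0.042 without 8 h), and Zbtb26 from −0.0234 without 0.5 h, with −0.0209 without 8 h, to 0.0566 without 4 h. The causes were not tested. The unstated normalization of the deposited values and the missing detection calls limit statements on dim genes.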

Other observations

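Lists not described above had small differences between phases. The 24 replication-dependent histone genes measured had a median late minus early log2 difference of −0.07 at 32°C and 0.01 at 37°C. Of them 1 fell in the 12-array fit, against 1.78% of all genes. It was H1f3, a linker histone, standing at 0.49, 0.48 and 0.47 early and at 0.11, −0.23 and −0.54 late. At 0.5 h 21 of the 24 were higher in the cooled cells and at 18 h 2 were. Probes of histone genes can share sequence, so these values are uncertain between members. The 20 interferon response genes had a median of −0.05 at 32°C and 0.06 at 37°C, and 1 fell in the 12-array fit, against 1.78% of all genes. It was Pml, a nuclear body protein, standing at 0.06, −0.04 and −0.51 early and at −0.69, −0.81 and −0.84 late. For p53 targets the medians were −0.09 and 0.02, with 13 of 15 negative at 32°C (all genes: 8824 of 19938) and none called. Ribosome assembly genes stood at 0.00 and 0.01.

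Extracellular matrix genes, among the brightest of the fibroblast, had medians of −0.05 at 32°C and 0.00 at 37°C, and at 18 h 5 of 32 were higher in the cooled cells. Smooth muscle contractile genes had medians of 0.03 and 0.05. At 4 h 0 of their 16 were higher at 32°C and at 18 h 9 were. Of the 7 osmolyte transport genes, Slc5a3 was the 1 that fell in the 12-array fit, against 1.78% of all genes. Fibroblast markers had a median late minus early difference of −0.12 at 32°C, and the lists of other cell types had medians of 0.01 to 0.13.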
